A study of Bos taurus with 3 samples.

Results

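SOX, forkhead and basic helix-loop-helix (bHLH) genes encode transcription factors, and 63 of the 13574 genes listed for bovine retina carry a symbol of these families. They were chosen by symbol alone: names beginning with SOX, FOX, NEUROD, NEUROG, HES, HEY, ASCL, ATOH, OLIG, BHLH or TCF, and ID1 to ID4. The rule gave 10 SOX genes, 21 forkhead genes, 27 bHLH genes and 5 other genes with a TCF symbol whose proteins were not counted in any of the 3 families (TCF7, TCF7L2, TCF19, TCF20 and TCF25).

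Poly(A) RNA of retinas from cattle of mixed strain was sequenced in 3 libraries, which form 1 group of untreated tissue collected between 7 and 10 in the morning. Total RNA was pooled for each library, and neither the age of the animals nor their number per pool is given in the sources used here. Values are FPKM, fragments per kilobase of gene length scaled to the depth of the library, so that levels of different genes are compared per length. The labels do not state whether different animals went into each library. Each SD (n = 3 throughout) is the spread among these libraries, which may be technical between libraries 1 and 3. Library 2 came from another pool of animals, as its XIST reads show below, so each SD also takes in a difference between pools.

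SOX proteins bind DNA through an HMG box and forkhead proteins through a winged helix. bHLH proteins bind E-box sequences as dimers, usually a cell-type-specific factor with a widely expressed E protein. In the vertebrate retina, proneural bHLH factors drive progenitors towards neurons, while HES and HEY repressors, many of them targets of Notch signalling, hold progenitors back and remain active in glia. ID proteins have the helix-loop-helix but no DNA-binding basic region, and they keep E proteins out of active dimers.

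The depth implied by the FPKM steps was 36656987, 39011741 and 49102476 reads in libraries 1, 2 and 3, which puts 3 reads of a 1 kb gene at 0.0818, 0.0769 and 0.0611 FPKM, a floor for counting error only. The tissue label was set against marker lists: all 10 measured rod markers, 8 of 9 cone markers, all 10 bipolar cell markers and 8 of 10 Müller glia markers averaged 10 FPKM or more. Of 7 blood cell markers the 5 with any read averaged under 1 FPKM, and the globin genes HBA and HBB were listed at 0, as was the widely expressed MLX, so a listed 0 is not read here as absence. Several members, such as HEY1, SOX17 and FOXP3, are themselves on these marker lists. The libraries were not alike in 2 respects. Short genes stood higher in library 1 than in library 3, with a median ratio of 1.28 over 1151 genes of 900 to 1300 bases and of 0.810 over 542 genes of 5000 bases and over. XIST, a noncoding RNA made in female cells, had 3987, 3 and 3628 reads in libraries 1, 2 and 3. This sets library 2 apart, which cannot have been made from the same pool of animals as library 1 or library 3. Without library 2, 40 members averaged 1 FPKM or more, 16 averaged 10 FPKM or more and the median member had 2.42 FPKM, against 39 members, 15 members and 2.30 FPKM with it.

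Most of the family genes were present at low levels, and a few carried most of the signal. Of the 63 members 39 had a mean of at least 1 FPKM (61.9%, against 70.7% of all listed genes) and 15 of at least 10 FPKM (23.8%, against 38.4% of all listed genes). The median member had 2.30 FPKM, against 5.67 FPKM for the median listed gene. Summed over genes, the members took 0.139% ± 0.0121 of all FPKM (0.149%, 0.125% and 0.142% by library). The 15 highest members made up 76.7% of the members' sum. Levels differed by family. The bHLH genes had a median of 5.73 FPKM and the other TCF genes 4.15 FPKM, while SOX genes had 1.68 FPKM and forkhead genes 0.373 FPKM. The bHLH median holds for the 27 genes that fit the symbol rule. A list of 42 measured bHLH factors outside the rule had a median of 2.62 FPKM.

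**Figure D1:**
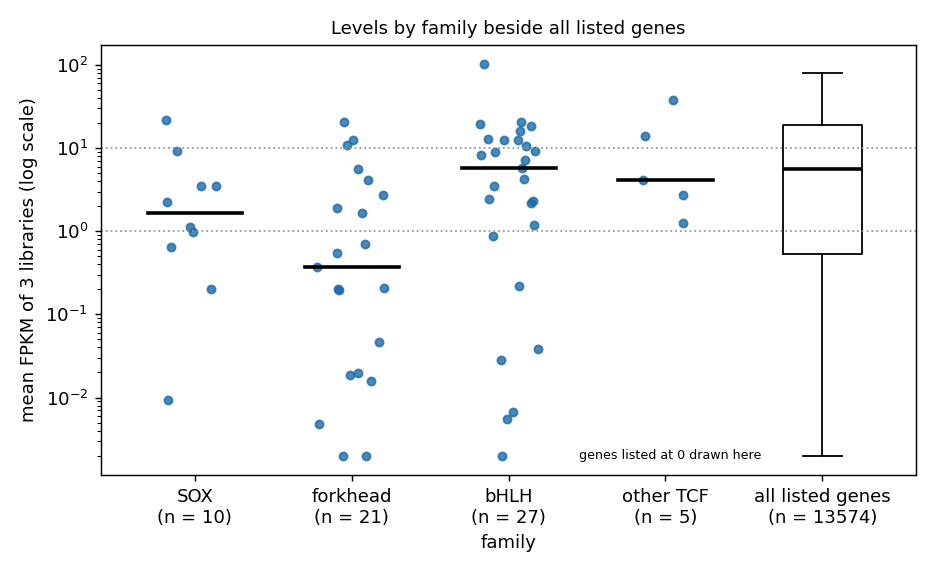
Each point is a gene and its height is the mean FPKM of 3 libraries on a log scale, by family, with the median as a black bar; the box shows the quartiles and the 5th to 95th percentiles of all 13574 listed genes, and dotted lines mark 1 and 10 FPKM. The forkhead median of 0.373 FPKM lies under 1 FPKM, while the bHLH median of 5.73 FPKM lies beside the 5.67 FPKM of all genes.

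NEUROD1, a proneural bHLH factor that photoreceptors need and keep expressing, stood far above every other member. It had 103, 108 and 96.4 FPKM in libraries 1, 2 and 3, a mean of 102 FPKM ± 5.61, and was the only member above 100 FPKM. It ranked 509 among all listed genes, above 96.3% of them, and made up 21.0%, 25.3% and 22.7% of the members' summed FPKM. Its highest library exceeded its lowest 1.12-fold. It exceeded TCF25, the next member, 2.67-fold ± 0.113, and the ranges of these genes did not overlap. In a bulk library fewer cells of a type and less RNA per cell cannot be told apart, so these levels are those of the whole tissue.

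The other proneural genes were much lower. NEUROD2, known from forebrain and amacrine neurons in mouse, had 6.68, 5.11 and 5.40 FPKM, and NEUROD1 exceeded it 18.1-fold ± 2.83. NEUROG2, a factor of neural progenitors, had 3.87, 3.45 and 3.12 FPKM and stood below NEUROD2 in each library. ATOH8 had 1.47, 1.12 and 0.953 FPKM. NEUROD6, which in mouse retina marks a set of amacrine cells, had 0.988, 0.915 and 0.737 FPKM, or 69, 68 and 69 reads, so it was measured well above the floor of 3 reads although it lay under 1 FPKM. ASCL2, a trophoblast factor, had 1 read in all, and ATOH1, the factor of inner ear hair cells and cerebellar granule neurons, was listed at 0 in each library. Thus 4 of 7 proneural genes reached a mean of 1 FPKM. ATOH7, NEUROD4 and BHLHE22, other proneural or related factors of the vertebrate retina, were not analysed here.

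**Figure D2:**
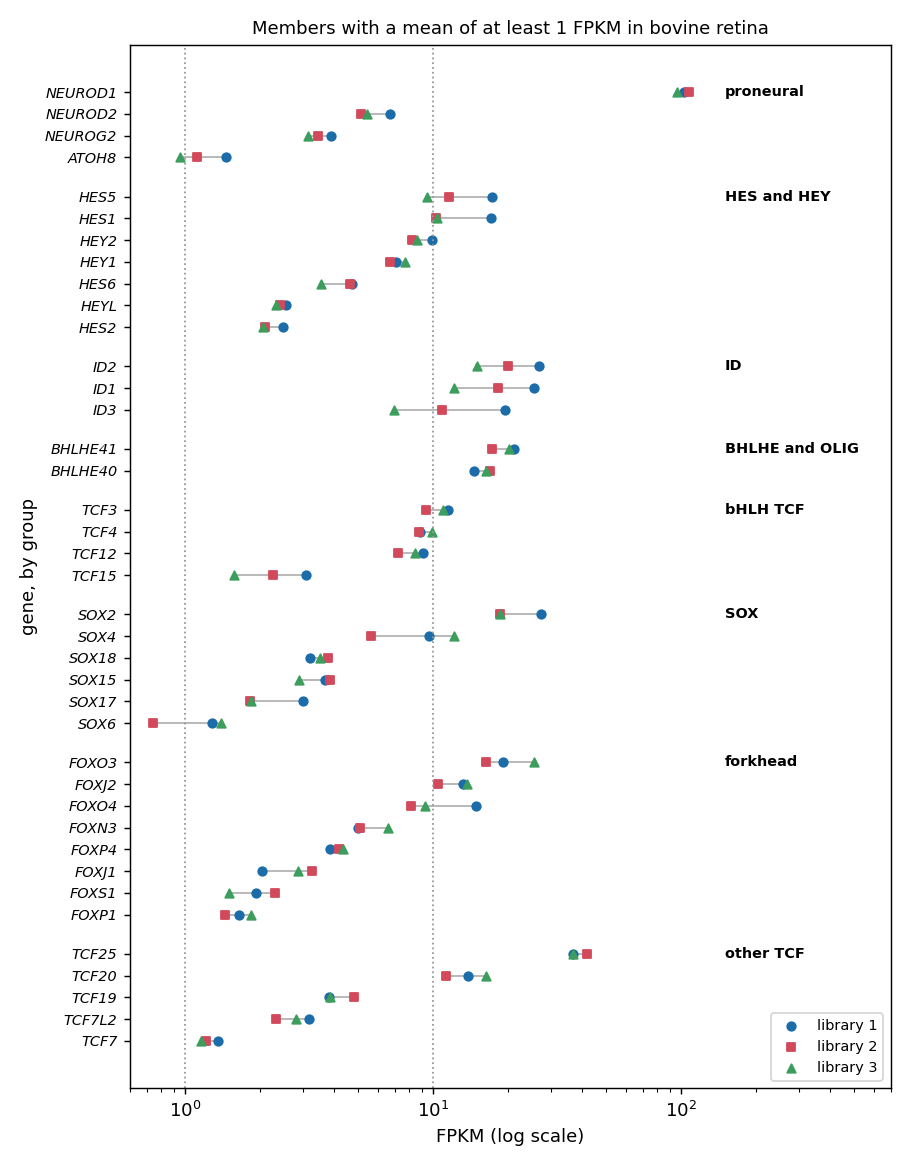
FPKM of the 39 members with a mean of at least 1 FPKM, on a log scale, by group, with 1 symbol per library and a grey line over the range; dotted lines mark 1 and 10 FPKM. NEUROD1 lies near 100 FPKM apart from the rest, and the ID genes, HES1, HES5, SOX4 and FOXO4 have wide ranges.

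The E proteins, the common partners of these factors, formed an even set. TCF3 had 11.5, 9.40 and 11.0 FPKM, TCF4 8.88, 8.74 and 9.87 FPKM, and TCF12 9.13, 7.25 and 8.46 FPKM in libraries 1, 2 and 3. TCF3 was above TCF4 and above TCF12 in each library, but by only 1.16-fold ± 0.114 and 1.28-fold ± 0.0264. TCF4 and TCF12 changed places between libraries. Among the other bHLH genes with a TCF symbol, TCF15, the paraxis gene of somites and some endothelia, had 3.07, 2.27 and 1.57 FPKM. TCF21, a factor of visceral mesoderm, and TCF23 had 1 and 6 reads over the 3 libraries.

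ID1, ID2 and ID3, the inhibitors of E proteins, were all above 10 FPKM on average, and their sum differed more between libraries 1 and 3 than that of any other member group, 2.10-fold. ID1 had 25.6, 18.3 and 12.2 FPKM in libraries 1, 2 and 3. ID2 had 26.8, 20.1 and 15.1 FPKM, and ID3 had 19.5, 10.9 and 6.96 FPKM. All 3 genes were highest in library 1 and lowest in library 3, although ID2 stayed above ID1 and ID1 above ID3 in every library. Their sum was 71.9, 49.3 and 34.2 FPKM, against an E protein sum (TCF3, TCF4 and TCF12) of 29.5, 25.4 and 29.4 FPKM. The ID sum thus exceeded the E protein sum 2.44-fold in library 1, 1.94-fold in library 2 and 1.17-fold in library 3. The ID genes have listed lengths of 928 to 1179 bases and the E protein genes of 1815 to 4681 bases. Short genes stood higher in library 1 than in library 3, so this ratio also carries the length trend. It was not recomputed with that trend removed. ID4 was not analysed here.

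ID genes are textbook targets of BMP signalling through SMAD proteins. Of the 20 genes on a list of that pathway 16 were measured, with a median of 4.01 FPKM. Of these 15 had a mean of at least 1 FPKM (93.8%, against 70.7% of all listed genes). At least 10 FPKM was reached by 2 (12.5%, against 38.4%). The 5 highest were the ligand BMP7 at 13.4 FPKM ± 0.513, the common SMAD4 at 13.1 FPKM ± 1.39, the receptors ACVRL1 at 8.01 FPKM ± 0.816 and ACVR1 at 7.79 FPKM ± 0.749, and the inhibitory SMAD7 at 7.64 FPKM ± 0.380. The pathway list did not share the order of the ID genes as a whole: its sum was 83.0, 81.0 and 88.5 FPKM in libraries 1, 2 and 3. Of the 15 genes past 1 FPKM 4 were highest in library 1, against 45.3% of all genes that averaged 1 FPKM or more. The 4 included the ligand BMP4 (1.77, 0.839 and 0.738 FPKM) and the inhibitory SMAD6 (3.08, 2.08 and 1.94 FPKM), named after their values were seen. GREM1 of the same list, also named after its values were seen, had the opposite order. It was 1.79-fold higher in library 3 than in library 1. A link between this pathway and the differences of the ID genes was not tested.

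Of the 8 HES and HEY repressors 7 had a mean of at least 1 FPKM, and HES5 and HES1 led them. HES5 had 17.4, 11.6 and 9.41 FPKM and HES1 had 17.2, 10.3 and 10.4 FPKM in libraries 1, 2 and 3. Their levels differed by less than the spread between libraries, with HES1 at 0.994-fold ± 0.107 of HES5 and above it in 1 of 3 libraries. Both were highest in library 1, where they exceeded library 2 as well as library 3. HEY2 had 9.87, 8.21 and 8.61 FPKM, and HEY1, which Müller glia express, had 7.08, 6.69 and 7.72 FPKM. HEYL had 2.55, 2.42 and 2.33 FPKM, the narrowest range of all members with a mean of at least 1 FPKM, 1.10-fold from lowest to highest. HES6, which counteracts HES1 and favours neurons, had 4.73, 4.65 and 3.55 FPKM. HES2 had 2.47, 2.09 and 2.07 FPKM, but its listed length of 4189 bases is longer than its whole span in the ARS-UCD2.0 assembly, the only member of which this is true by over 1%. HES7, the repressor of the segmentation clock, had 9, 4 and 5 reads.

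The Notch pathway, which induces HES1, HES5 and the HEY genes, was measured in part. The list names 52 symbols, some of them older and newer names of 1 gene, and 33 were measured. Of these 31 had a mean of at least 1 FPKM (93.9%, against 70.7% of all listed genes). At least 10 FPKM was reached by 17 (51.5%, against 38.4%). The 33 genes had a median of 10.3 FPKM. The 5 highest were the corepressor AES at 200.5 FPKM ± 8.01, the ubiquitin ligases DTX3 at 118 FPKM ± 12.5 and NEURL at 90.6 FPKM ± 13.3, the corepressor CTBP2 at 69.7 FPKM ± 3.29 and the gamma-secretase subunit PSENEN at 37.9 FPKM ± 6.18. Ligands and the nuclear effector, named after their values were seen, were lower: JAG1 had 10.5 FPKM ± 2.72, DLL4 3.54 FPKM ± 0.345, DLL3 1.52 FPKM ± 0.155 and RBPJ 2.95 FPKM ± 0.586. The 4 NOTCH receptors and DLL1 were not analysed here. The sum of the measured pathway genes did not share the library pattern of HES1 and HES5, at 809, 813 and 802 FPKM in libraries 1, 2 and 3. AES, DTX3, NEURL and CTBP2 weigh most in that sum, and the ligands and RBPJ weigh little. Of the 31 genes past 1 FPKM 7 were highest in library 1, against 45.3% of all genes that averaged 1 FPKM or more. Notch activity itself was not tested.

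BHLHE40 and BHLHE41, repressors that also feed back on the circadian clock, differed 1.16-fold and 1.22-fold between their lowest and highest libraries as deposited. BHLHE41 had 21.1, 17.3 and 20.3 FPKM and BHLHE40 had 14.6, 16.9 and 16.3 FPKM in libraries 1, 2 and 3. In these values BHLHE41 was above BHLHE40 in each library, by 1.24-fold ± 0.212 on average and 1.02-fold in library 2. With the length trend removed BHLHE41, of 971 bases, had 18.7, 16.7 and 24.2 FPKM. BHLHE40, of 2920 bases, then had 14.5, 17.3 and 16.2 FPKM, so it stood above BHLHE41 in library 2. OLIG1, a factor of the oligodendrocyte lineage, had 4, 1 and 4 reads.

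Other bHLH factors, whose symbols lie outside the rule, included higher genes. Of 65 symbols 42 were measured, with a median of 2.62 FPKM. Of these 26 had a mean of at least 1 FPKM (61.9%, against 70.7% of all listed genes). At least 10 FPKM was reached by 14 (33.3%, against 38.4%). The 5 highest were USF2 at 150.1 FPKM ± 13.9 and USF1 at 36.2 FPKM ± 5.65, widely expressed E-box activators, SREBF2 at 35.1 FPKM ± 3.17 and SREBF1 at 27.1 FPKM ± 0.427, regulators of sterol and lipid synthesis, and the aryl hydrocarbon receptor AHR at 34.8 FPKM ± 7.34. USF2 was the only one above NEUROD1.

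Among SOX genes, SOX2 led. SOX2, which maintains neural progenitors and is kept by Müller glia and some amacrine cells, had 27.2, 18.7 and 18.7 FPKM in libraries 1, 2 and 3, a mean of 21.5 FPKM ± 4.94. SOX4, a factor of neuronal differentiation, had 9.59, 5.60 and 12.2 FPKM, and SOX2 exceeded it in each library, by 2.57-fold ± 0.929. SOX4 was lowest in library 2 and highest in library 3, unlike SOX2, which was highest in library 1. The listed length of SOX4, 947 bases, covers 50.4% of its span in the ARS-UCD2.0 assembly, so its FPKM rests on part of the gene, whereas that of SOX2 covers 99.3%.

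SOX18 and SOX17, which act in the endothelium of vessels, had 3.19, 3.76 and 3.49 FPKM and 2.99, 1.83 and 1.85 FPKM in libraries 1, 2 and 3. SOX18 was above SOX17 in every library, by 1.67-fold ± 0.529. The 11 measured endothelial and pericyte markers, which include these genes and FOXC2, had a median of 3.48 FPKM and summed to 98.3, 98.9 and 94.4 FPKM. SOX15 had 3.66, 3.84 and 2.89 FPKM. SOX6 and SOX5, partners in cartilage and in neuronal and glial development, had 1.28, 0.743 and 1.40 FPKM and 0.875, 0.765 and 1.31 FPKM, both lowest in library 2. SOX6 overlaps C15H11orf58 in the ARS-UCD2.0 assembly, a gene with 30.4 FPKM ± 3.76, and as strand is not known here reads of these genes cannot be told apart where they overlap. SOX10, a factor of neural crest, melanocytes and oligodendrocytes, had 0.922, 0.437 and 0.559 FPKM, or 101, 51 and 82 reads. Its level in library 1 was the highest, while the 6 measured oligodendrocyte markers, which include SOX10 and OLIG1, summed to 14.2, 12.5 and 15.8 FPKM and included MAG, which had a read in library 2 alone. SOX30 had 18, 17 and 37 reads, and SOX14 had 1 read in all. SOX9, a Müller glia factor, and SOX8 and SOX11 were not analysed here.

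The forkhead family had the largest share of genes at low levels, with 13 of 21 under a mean of 1 FPKM. FOXO3, a factor that AKT keeps out of the nucleus and that acts on stress defence, autophagy and survival, led with 19.1, 16.4 and 25.6 FPKM in libraries 1, 2 and 3. FOXJ2 had 13.2, 10.5 and 13.7 FPKM. FOXO4, a relative of FOXO3 under the same control, had 14.9, 8.14 and 9.29 FPKM. FOXO3 was above FOXO4 in each library, but by 1.28-fold in library 1 and 2.76-fold in library 3. The genes also differed in their order, as FOXO3 was highest in library 3 and FOXO4 in library 1.

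The regulators of FOXO proteins were in part abundant. Of 19 list genes 14 were measured, with a median of 16.2 FPKM. Of these 13 had a mean of at least 1 FPKM (92.9%, against 70.7% of all listed genes). At least 10 FPKM was reached by 8 (57.1%, against 38.4%). The 14-3-3 genes YWHAB, YWHAE and YWHAG, whose products hold phosphorylated FOXO proteins in the cytoplasm, had 185 FPKM ± 3.58, 146 FPKM ± 20.1 and 75.9 FPKM ± 22.7. The kinases AKT1 and AKT2 had 64.6 FPKM ± 3.71 and 35.1 FPKM ± 10.7. FOXO1, INSR and IRS1 were not analysed here.

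FOXN3, a forkhead repressor, had 4.97, 5.07 and 6.57 FPKM in libraries 1, 2 and 3. FOXP4 and FOXP1, repressors with roles in neural and lung development, had 3.86, 4.17 and 4.34 FPKM and 1.64, 1.44 and 1.84 FPKM. Their relative FOXP2, the gene tied to speech disorder in humans, had 0.488, 0.459 and 0.699 FPKM. FOXJ1, the regulator of motile cilia, had 2.04, 3.26 and 2.87 FPKM, and FOXS1 had 1.94, 2.31 and 1.51 FPKM. FOXP3, the factor of regulatory T cells, had 0.643, 0.641 and 0.844 FPKM, above the T cell marker CD3E at 0.190, 0.0792 and 0.0472 FPKM. FOXP3 overlaps CCDC22 and PPP1R3F in the ARS-UCD2.0 assembly, which had 12.7 FPKM ± 0.765 and 16.0 FPKM ± 1.31, so its value is uncertain where strand is not known.

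The remaining forkhead genes averaged under 1 FPKM, and some of them lay under the floor of 3 reads. FOXC2, a factor of mesenchyme and lymphatic vessels, had 44, 22 and 43 reads, FOXA3, a liver factor, 19, 8 and 16 reads, FOXH1, a partner of Nodal signalling, 7, 10 and 13 reads, and FOXL2, a factor of ovary and eyelid, 6, 12 and 12 reads. FOXI2 and FOXN1 had 3 or more reads in 1 library each. FOXN4, which in embryonic mouse retina specifies amacrine and horizontal cells, had 0, 2 and 2 reads. FOXE3, a lens factor, had 1, 1 and 2 reads. Of the 8 measured lens markers, FOXE3 among them, 6 averaged under 1 FPKM. The other 2, CRYBB3 and CRYBB1, had 16.1 FPKM ± 10.2 and 13.9 FPKM ± 3.89. FOXA1 had 1 read, and FOXI1 and FOXR2 were listed at 0. In all, 9 of the 63 members had under 3 reads in every library, namely FOXA1, FOXE3, FOXI1, FOXN4, FOXR2, ASCL2, ATOH1, SOX14 and TCF21, and 50 had at least 3 reads in every library.

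The other genes with a TCF symbol ranged widely. TCF25, a component of the ribosome quality control complex, had 36.8, 41.8 and 36.6 FPKM in libraries 1, 2 and 3, and TCF20, a chromatin-associated coregulator, had 13.8, 11.3 and 16.4 FPKM. TCF19 had 3.81, 4.80 and 3.84 FPKM. TCF7L2 and TCF7, HMG-box factors that join beta-catenin in WNT signalling, had 3.15, 2.32 and 2.81 FPKM and 1.36, 1.21 and 1.15 FPKM. TCF7L2 was above TCF7 in each library, by 2.22-fold ± 0.273. Of 22 genes on a list of WNT effectors 16 were measured. Of these 14 had a mean of at least 1 FPKM (87.5%, against 70.7% of all listed genes). At least 10 FPKM was reached by 8 (50%, against 38.4%). The 5 highest were CTNNB1, beta-catenin itself, at 69.5 FPKM ± 14.2, the kinase GSK3A at 61.2 FPKM ± 1.82, the beta-catenin inhibitor CTNNBIP1 at 25.1 FPKM ± 4.50, the coactivator PYGO2 at 22.7 FPKM ± 1.5 and the corepressor TLE4 at 19.4 FPKM ± 1.98. LEF1, the other DNA-binding partner measured and named after its values were seen, had 1.36 FPKM ± 0.163.

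Ordered by mean level, most neighbouring members had ranges that overlapped. Of 38 neighbouring pairs among the 39 members with a mean of at least 1 FPKM, 5 had ranges that did not overlap. They were NEUROD1 over TCF25, TCF25 over SOX2, HEY1 over NEUROD2, FOXN3 over HES6 and FOXP1 over TCF7. Another 4 pairs had overlapping ranges but the same order in all 3 libraries, namely TCF3 over TCF4, HEY2 over TCF12, TCF12 over HEY1 and SOX15 over TCF7L2. From SOX2 down to HEY1 the ranges of neighbours overlapped at each step, although SOX2 averaged 21.5 FPKM and HEY1 7.16 FPKM.

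The last comparison was between libraries, with 1 library on each side and no test. The highest library exceeded the lowest at least 1.5-fold for 14 of 39 members (35.9%), against 27.8% of all 9599 genes that averaged 1 FPKM or more, and at least 2-fold for 3 of 39 (7.69%), against 6.06% of all genes. These shares lie near the background. The median ratio of highest to lowest library was 1.32 for the members and 1.33 for all genes. The 3 genes past 2-fold were ID3 at 2.80-fold (95% exact counting interval 2.44 to 3.21), SOX4 at 2.18-fold (1.85 to 2.56) and ID1 at 2.11-fold (1.90 to 2.34). In all 14 genes past 1.5-fold the exact counting interval of the ratio lay above 1, an interval that covers counting error only. The same held for 35 of the 39 members. As the highest and lowest libraries were picked by their values, this does not set the 14 genes apart.

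Of these 14 genes 9 were highest in library 1, namely ID1, ID2, ID3, HES1, HES5, FOXO4, SOX17, TCF15 and ATOH8. FOXO3, SOX4 and SOX6 were highest in library 3, and FOXJ1 and FOXS1 in library 2. Over the 39 members 21 were highest in library 1 (53.8%, against 45.3% of all genes), 8 in library 2 (20.5%, against 29.0%) and 10 in library 3 (25.6%, against 25.7%). By family, 16 of 20 bHLH genes but 1 of 8 forkhead and 2 of 6 SOX genes were highest in library 1, and 5 of 8 forkhead genes were highest in library 3. The difference between families was not tested. The lead of library 1 depended on the scaling: with the libraries scaled to equal sums 17 members were highest in library 1, 5 in library 2 and 17 in library 3, and with scaling by the median ratio 16, 10 and 13.

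Library 2 was the lowest for 18 members (46.2%, against 32.1% of all genes), library 3 for 15 (38.5%, against 43.3%) and library 1 for 6 (15.4%, against 24.5%). Library 1 was at least 1.5-fold above library 3 for 9 members (23.1%, against 13.2% of all genes) and above library 2 for 7 (17.9%, against 11.0%). No member was that far above library 1 in library 3 (against 3.67%), and FOXJ1 alone was in library 2 (2.56%, against 2.52%). Library 2 exceeded library 3 that far for 3 members (7.69%, against 4.66%), and library 3 exceeded library 2 for 3 (7.69%, against 7.13%). Without library 2 the count past 1.5-fold was 9 members, without library 1 it was 6 and without library 3 it was 8.

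**Figure D3:**
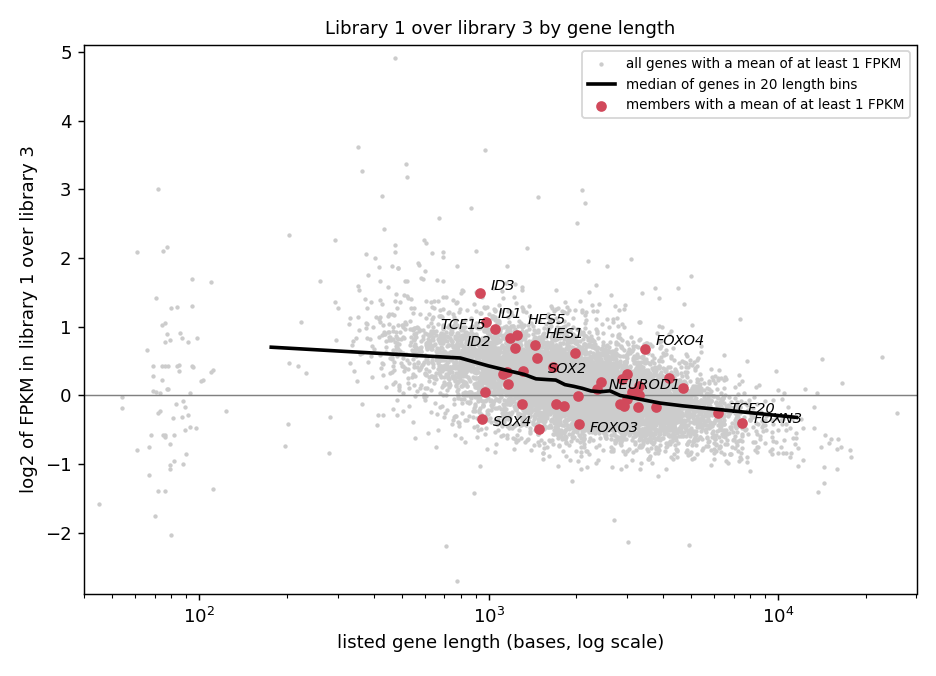
Each point is a gene with a mean of at least 1 FPKM, by listed length in bases on a log scale and by the log2 ratio of FPKM in library 1 over library 3; members are red and the black line joins the medians of 20 length bins. The line falls with length, and ID3, ID1, HES5, HES1 and FOXO4 lie above it, while SOX4 and FOXO3 lie below it.

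Gene length moved with this pattern. ID1, ID2 and ID3 have listed lengths of 980, 1179 and 928 bases, and library 1 exceeded library 3 by 2.11-fold, 1.78-fold and 2.80-fold in these genes, against a median of 1.28-fold over all genes of 900 to 1300 bases. Of those genes 25.7% were at least 1.5-fold higher in library 1 than in library 3. After the median trend with length was removed, the ratios were 1.56 for ID1, 1.39 for ID2 and 2.08 for ID3, and 1.40 for HES1 and 1.44 for HES5. SOX4, which has 947 bases and lay lower in library 1 than in library 3, then had a ratio of 0.584. In this setting 9 members passed 1.5-fold, all of them among the 14, against 21.3% of all genes, and ATOH8, FOXS1, HES5, ID2 and TCF15 no longer did. ID3 and SOX4 still passed 2-fold, against 4.66% of all genes. With the trend removed 18 members were highest in library 1 (against 36.1% of all genes), 8 in library 2 (against 35.4%) and 13 in library 3 (against 28.5%).

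**Figure D4:**
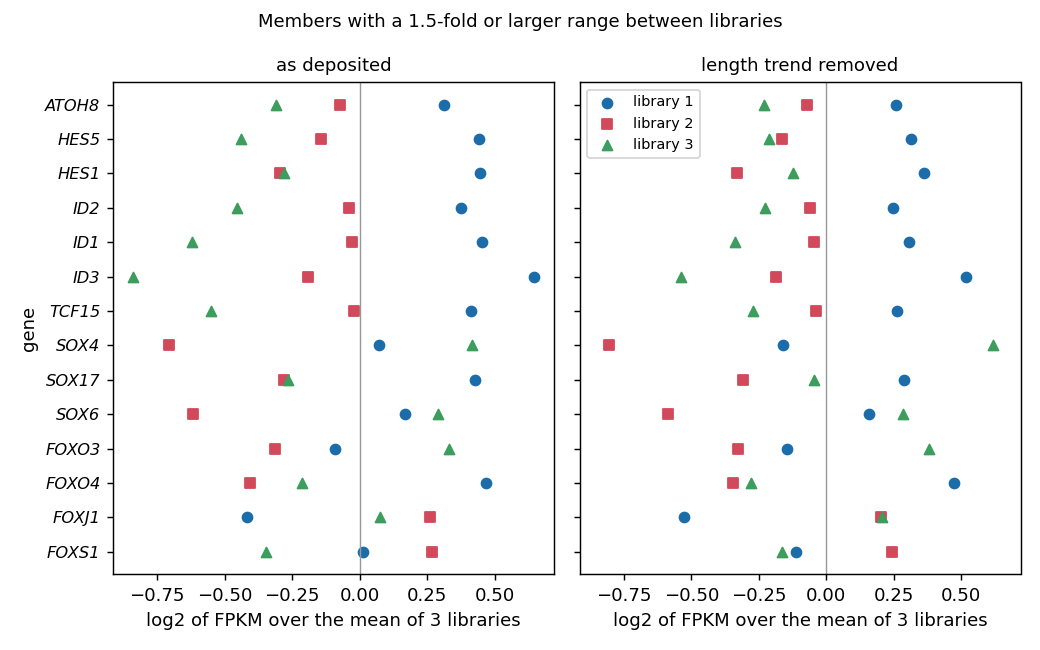
For the 14 members past 1.5-fold, each symbol is the log2 of FPKM in 1 library over the mean of 3 libraries, as deposited on the left and with the length trend removed on the right. Library 1 is highest for the ID genes, HES1 and HES5 on both sides, and library 2 is lowest for SOX4, SOX6 and FOXO3.

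Markers of other cells also differed between libraries. The 8 measured pigment epithelium markers summed to 42.9, 25.8 and 14.6 FPKM in libraries 1, 2 and 3, the same order as the ID sum of 71.9, 49.3 and 34.2 FPKM. Most of that marker sum came from TTR, a short gene of 596 bases with 25.8, 15.6 and 5.36 FPKM. RPE65, the defining isomerase of that tissue, had 6.39, 1.92 and 1.61 FPKM, and TYR, its tyrosinase, had 0, 0 and 0.00992 FPKM. Of the 6 markers of that list with a mean of at least 1 FPKM, 4 were highest in library 1, against 45.3% of all genes with such a mean. TYRP1 (2.06, 1.77 and 2.24 FPKM) and MITF (1.69, 1.46 and 2.33 FPKM) were instead highest in library 3. The 8 lens markers summed to 33.6, 43.9 and 19.5 FPKM, the 6 microglia markers to 11.2, 13.7 and 9.46 FPKM and the 10 Müller glia markers, HEY1 among them, to 2067, 2647 and 2175 FPKM. Their part in the differences of the ID and HES genes was not tested.

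**Figure D5:**
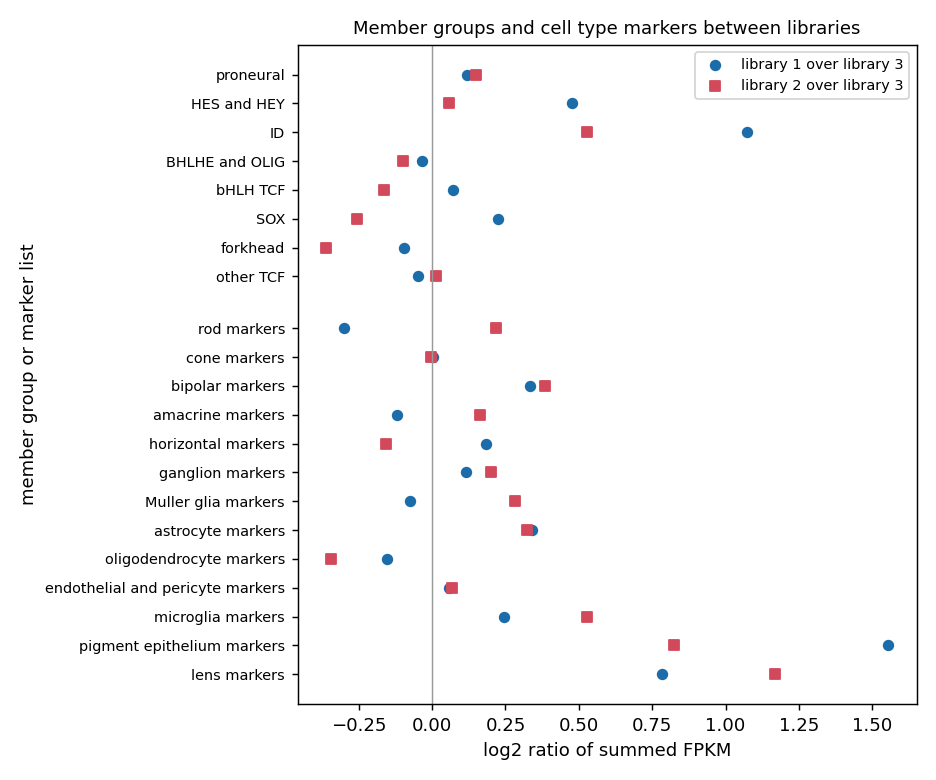
Log2 ratios of summed FPKM of each member group and of each cell type marker list except blood, in library 1 over library 3 (circles) and in library 2 over library 3 (squares). The ID group and the pigment epithelium markers lie farthest to the right in library 1 over library 3, with sums of 71.9 against 34.2 FPKM and 42.9 against 14.6 FPKM.

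All 63 members matched a gene symbol of the ARS-UCD2.0 assembly. In that assembly 114 protein-coding symbols fit the same pattern, and the other 51 were not analysed here. Of the members 4 overlap another listed gene there (SOX6, FOXP1, FOXP3 and TCF20), of which FOXP1 and TCF20 hold a microRNA gene.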

How the data were processed

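Reads were sequenced from poly(A) RNA of bovine retina fragmented to about 200 bp, per the labels' protocols. CASAVA 1.8.1, GSNAP and HTSeq were used, per the submitters' processing notes. Their roles and settings, the build, the annotation, strandedness and the treatment of multiply mapping reads were not given in the sources used here. Genes with near-identical copies are therefore uncertain. The authors deposited 1 table of FPKM per gene and library with a gene length in bases, per the file headers. Each FPKM column was tied to its library by replicate number, and 0 other per-sample columns were left unused.

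Reads were recovered as FPKM times length: values of up to 2000 reads were whole multiples of 1 read within 0.1 in 100% of cases, which gave denominators of 36656987, 39011741 and 49102476 reads, of which 59.1%, 61.0% and 57.6% lay on listed genes. They served for depth, for the floor of 3 reads and for exact 95% intervals of ratios. As no molecular identifiers are named, 2 reads may come from 1 molecule, and both measures take in counting error alone. Recovery of reads and removal of the length trend (median log2 deviation of each library in 20 length bins, over genes averaging 1 FPKM or more, a choice made after the data were seen) were tested on simulated data. Python 3.11.15, pandas 2.3.3, numpy 2.4.6, scipy 1.17.1 and matplotlib 3.10.9 were used.

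The labels give 1 group, so no test between groups was made; an exact two-sided sign-flip test of 3 libraries could not go below p = 0.25. Counts and medians of members are set beside those of all listed genes. The members and lists were chosen with earlier results of these data known. Named genes were members with a mean of at least 5 FPKM, members past 1.5-fold that averaged 1 FPKM or more, the 3 highest of each group, members under 3 reads and the 5 highest of each pathway list. Members outside this rule are given so that each one is accounted for. The RefSeq table of ARS-UCD2.0 served only for symbols, spans and overlaps, because the build behind the FPKM is unknown. Alternatives were other thresholds, scalings, filters and families, removal of the length trend, and leaving out each library.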

Additional observations from a re-analysis of the deposited data

How the results depend on the processing

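No paired analysis was possible because the labels give 1 group. When each library was left out, the count of members past 1 FPKM was 39 to 40, against 39 with all libraries, and the count past 10 FPKM was 13 to 16, against 15. At 20 FPKM 5 members passed. The members' summed FPKM fell to 386.8, against 447, without the 5 TCF genes of no SOX, forkhead or bHLH factor, and the median of log2(FPKM + 1) of 1.72 was 1.27 with a pseudocount of 0.1, a change that the pseudocount makes by construction.

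Counts of differences between libraries depended most on the choices. The 14 members past 1.5-fold became 32 with no filter on low values, 8 at a mean of at least 5 FPKM, 9 with the length trend removed and 6 to 9 when a library was left out, with 6 without library 1. The 3 past 2-fold became 16 with no filter and 0 to 2 when a library was left out. Members highest in library 2 numbered 8, 5 with libraries scaled to equal sums and 10 to 19 with a library left out. Those highest in library 3 numbered 10, 17 with equal sums and 14 to 20 with a library left out, and those highest in library 1 numbered 21 and 25 to 29. Fewer libraries leave fewer values to differ, and the cause of the other changes was not tested. No direction reversed in the 9 ratios of library 1 over library 3 recomputed here, for ID1, ID2, ID3, HES1, HES5, SOX2, SOX4, FOXO3 and FOXO4. Some other members did reverse once the length trend was removed. Among them NEUROG2 went from 1.24 to 0.966, SOX15 from 1.27 to 0.987 and TCF20 from 0.839 to 1.05. Depth limits the members under 3 reads, for which no difference between libraries was detectable.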
